A study of Mus musculus with 30 samples.

Results

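The spread of transcript levels between embryos of the same kind was examined over all 30 arrays of the study, each of which measured the RNA of a single mouse blastocyst. Arrays were placed by their titles into 3 groups of 10, and the standard deviation (SD) of each gene within a group was compared between groups, in place of its mean. Zygotes from stimulated matings of B6C3F1 and CD1 mice were cultured in KSOM(aa), a medium made for mouse embryos, until they had 2 cells. From each of 10 embryos the sister blastomeres were then separated. A blastomere of each pair, the "a" twin, grew alone in GM501, and its sister, the "b" twin, grew alone in SAGE 1-Step, both of them media for assisted reproduction. The 10 controls were left intact and grew singly in KSOM(aa). Lysis was at 4 days post coitum, after 96 h in vitro, when a twin held about 40 to 50 cells and a control about 80, per the labels. Medium, bisection and cell number all separate controls from twins, and their parts cannot be told apart. Each array is 1 embryo, so differences between embryos and differences added while a small amount of RNA was amplified cannot be told apart either.

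A blastocyst is built of an outer trophectoderm, which pumps fluid into the cavity and will form the placenta, and an inner cell mass that divides into epiblast and primitive endoderm. Monozygotic twins share a genome, and in the mouse either blastomere of the 2-cell stage can form a whole blastocyst with fewer cells. A gene's spread between embryos reflects sex, parental alleles, small differences in developmental timing and measurement error together. In bulk RNA of whole embryos, fewer cells of a type and less RNA per cell cannot be told apart. The arrays carried the RNA of blastocysts: Krt18, a keratin of the trophectoderm, had mean log2 signals of 17.66 in GM501 twins, 17.56 in SAGE and 18.05 in controls, and Pou5f1, the pluripotency factor OCT4, had 9.08, 8.63 and 9.77. Of 20 markers of muscle, skin, pancreas and other adult tissues, 7 reached the level kept for testing, with a median log2 level of 5.05 over these genes. Of 19 markers of cumulus, oviduct, blood and immune cells, 8 did, with a median of 5.25.

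The arrays of twins fell into sets that no label names. Array medians, taken over all 65956 transcript clusters, ran from 4.59 to 4.69 in controls. In pairs 1 to 6 they ran from 4.86 to 5.28 in GM501 twins and from 4.81 to 5.22 in SAGE twins. In pairs 7 to 10 they ran from 4.59 to 4.66 in GM501 twins and from 4.57 to 5.12 in SAGE twins, where the SAGE twin of pair 8, at 5.12, stood with the first set. What separates the sets was not tested. Array-wide values are given over all pairs and within the sets, and values of single genes and lists are over all pairs unless stated.

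Transcript levels were spread more widely between twins than between intact embryos. Among the 18087 genes kept, the median SD was 0.461 log2 units in GM501 twins, 0.475 in SAGE and 0.254 in controls. The SD of a gene exceeded its SD in controls for 87.1% of genes in GM501 twins, for 87.6% in SAGE twins and for 81.0% in both. The median log2 ratio of SDs, twins over controls, was 0.83 in GM501 and 0.87 in SAGE, or 1.78-fold and 1.83-fold. Between the media the ratio was close to 1, with a median log2 ratio of GM501 over SAGE of -0.03.

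**Figure D1:**
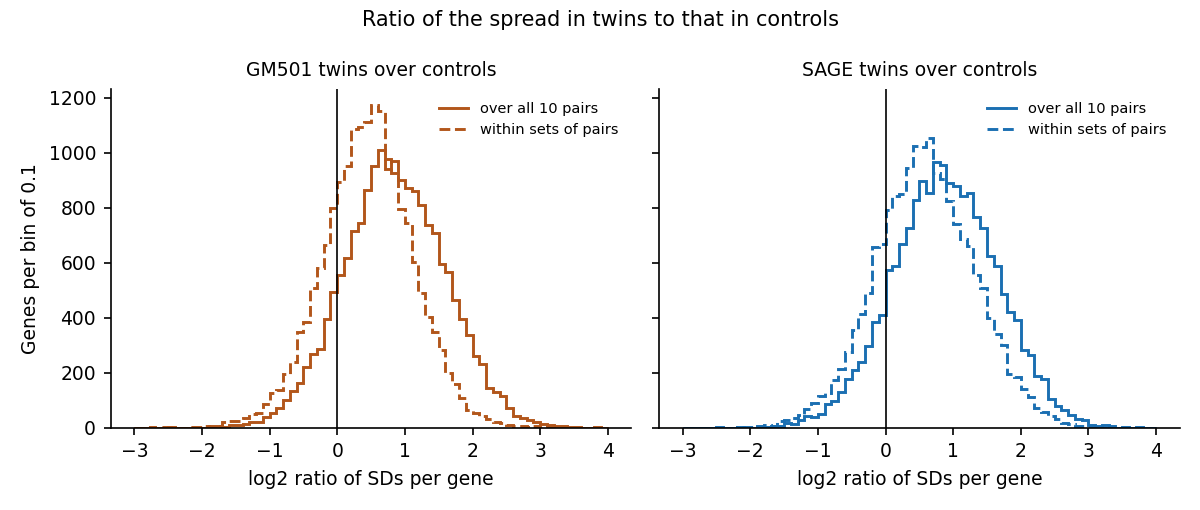
Histograms of the log2 ratio of a gene's SD in twins to its SD in controls (x axis) for 18087 genes, as genes per bin of 0.1 (y axis); the left panel shows GM501 twins and the right panel SAGE twins. Solid lines use all 10 pairs, with medians of 0.83 and 0.87, and dashed lines use the SD pooled within pairs 1 to 6 and pairs 7 to 10, with medians of 0.46 and 0.57.

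The same was seen array by array. The typical deviation of an array is the median, over genes, of its absolute distance from the median of its group, scaled for the group's size. In controls it had a lowest value of 0.137, a median of 0.153 and a highest value of 0.169 log2 units. In GM501 twins these values were 0.195, 0.314 and 0.401, so all 10 lay above the highest control. In SAGE twins they were 0.169, 0.293 and 0.480, and 9 of 10 lay above the highest control while that of pair 3 equalled it. Means were 0.297 ± 0.074, 0.303 ± 0.105 and 0.154 ± 0.011 (SD, n = 10 each) in the order GM501, SAGE, controls. The difference from controls was 0.142 in GM501 (two-sided permutation test, p = 3e-05) and 0.148 in SAGE (p = 5e-05). Both comparisons share the 10 control arrays.

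The excess was smaller within the sets of pairs. With each twin measured from the median of its own medium and set, the mean typical deviation was 0.197 ± 0.046 in GM501 and 0.224 ± 0.097 in SAGE (SD, n = 10), and the differences from controls were 0.043 (permutation p = 0.00438) and 0.070 (permutation p = 0.00133). The SAGE twin of pair 8 then had the highest value, 0.473. As the square root of the mean variance over genes, which does not depend on the number of arrays, the spread was 0.625 over all GM501 twins, 0.635 over all SAGE twins and 0.379 in controls. Within sets it was 0.498 in GM501 and 0.531 in SAGE, 1.32-fold and 1.4-fold above controls. In pairs 7, 9 and 10 alone it was 1.22-fold above controls in GM501 and 1.09-fold in SAGE.

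**Figure D2:**
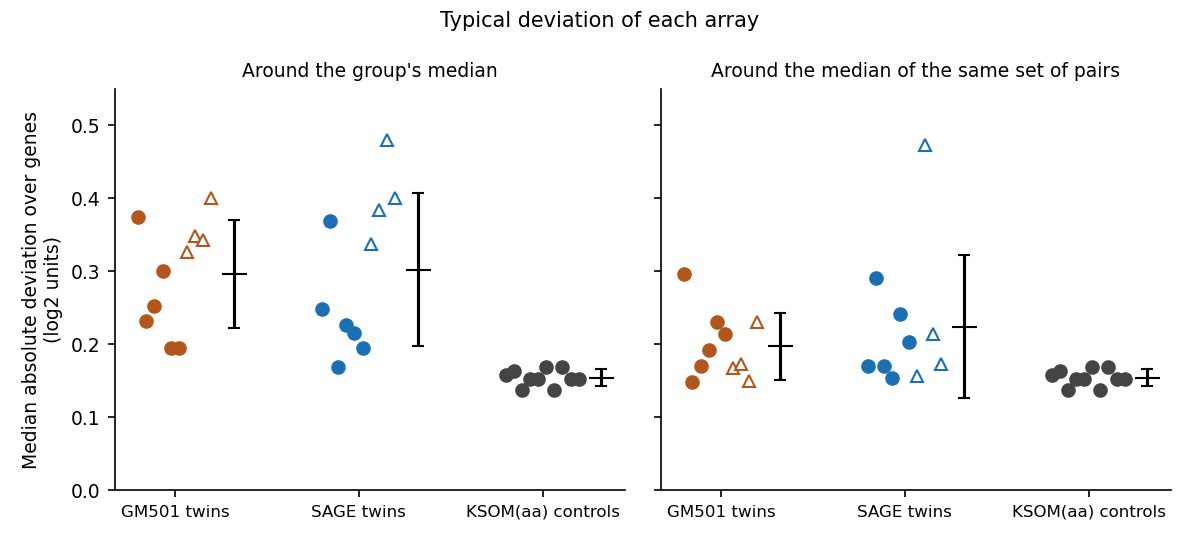
Typical deviation of each array, the median over 18087 genes of the absolute distance from the group's median (left) or from the median of the same medium and set of pairs (right), in log2 units. Filled circles are pairs 1 to 6 and controls, open triangles are pairs 7 to 10, and bars show mean ± SD (n = 10); controls lie between 0.137 and 0.169, and the twins of pairs 7 to 10 move down towards them on the right, except the SAGE twin of pair 8 at 0.473.

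Tested gene by gene, unequal spread was common in 1 direction only. The test compared absolute deviations from the group's median with limma, and twins of both media entered as 10 means of co-twins. Of 18087 genes, 5111 had higher spread in twins than in controls (28.3%) and 18 had lower spread (0.0995%), at an adjusted p under 0.05. With the GM501 twins alone, 1615 genes had higher spread (8.93%) and 13 lower (0.0719%). With the SAGE twins alone, 1060 genes had higher spread (5.86%) and 12 lower (0.0663%). Single pairs decided the counts within a medium: without any 1 of pairs 7, 8, 9 and 10, limma called 0 genes in GM501 and 0 in SAGE, with 4205 to 4707 genes at an unadjusted p under 0.05. Without pair 1 it called 151 genes in GM501 and 0 in SAGE, the latter with 5330 at an unadjusted p under 0.05. Without pairs 2, 3 and 4 the counts were 671, 625 and 289 in GM501 and 171, 162 and 81 in SAGE, and without pair 5 SAGE had 685. The count for both media together ran from 2042 without pair 9 to 5215, and was 2431, 2305 and 2167 without pairs 7, 8 and 10.

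Within the sets of pairs few genes passed. With deviations taken within sets, 15 genes had higher spread in twins of both media and 0 lower by limma, and 3563 of the 18087 had an unadjusted p under 0.05. Pairs 1 to 6 alone gave 415 genes with higher spread and 8 with lower, and pairs 7 to 10 alone gave 25 and 0. Among the 15 were Capns1, the small regulatory subunit of calpains, with SDs of 0.650 in GM501 twins, 0.801 in SAGE and 0.078 in controls, and Sdhd, a membrane subunit of succinate dehydrogenase, with 0.477, 1.098 and 0.296. Dnpep, an aspartyl aminopeptidase, had the smallest adjusted p of the 15 (limma, 0.0222), with SDs of 0.705, 0.794 and 0.154. These 3 were chosen after their values were seen. The other genes named below lose their calls within sets: of 107 chosen by rule that had unequal spread over all pairs, 0 passed there by limma, 58 had an unadjusted p under 0.05, and the lowest adjusted p was 0.0528. In the gene lists below, Sdhd was the 1 member with higher spread within sets.

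Spread varied with mean level in each group. Genes were divided by their mean over all 30 arrays into 10 bins of equal size, from bin 1, the lowest, to bin 10. In controls the median SD climbed from 0.157 log2 units in bin 1 to 0.334 in bin 7 and came down to 0.183 in bin 10. In GM501 twins it went from 0.318 to a peak of 0.634 in bin 8 and 0.460 in bin 10, and in SAGE twins from 0.305 to 0.675 and 0.561. Twins over controls, the median fold of the SDs was lowest in bin 5, at 1.49 for GM501 and 1.5 for SAGE. It was 2.01 and 1.99 in bin 1 and 2.42 and 2.95 in bin 10. The share of genes with higher spread in twins was 30.6% in bin 1, 17.5% in bin 5 and 49.1% in bin 10. Within sets the shape in twins was alike, with median SDs of 0.231 and 0.269 in bin 1, 0.475 and 0.522 in bin 8, and 0.296 and 0.358 in bin 10, in the order GM501, SAGE.

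The share called at low levels depended on how arrays were scaled. With quantile normalization of the 30 arrays, the share called in bin 1 dropped from 30.6% to 4.04%, and in bin 10 it was 39.0%. The fold of SDs in bin 1 was then 1.46 for GM501 and 1.4 for SAGE, against 2.35 and 2.75 in bin 10. With each array centred on its median over the genes kept, the low end stayed wide, with 35.8% called in bin 1 and 48.2% in bin 10. Genes called at low and high levels also differed in their means. Of 2089 called genes in bins 1 to 5, 3.30% had a lower mean in twins than in controls, against 52.2% of 3022 in bins 6 to 10. Of all 18087 genes kept, 38.9% did. The shares of all genes in bins 1 to 5 and 6 to 10 are not given here. Whether the contrast is particular to called genes was therefore not examined. Array medians, given above, were higher in twins of pairs 1 to 6 than in controls, and their part in this was not tested. Each gene's share of variance that was linear in the array median had a median over genes of 0.393 in GM501 twins, 0.341 in SAGE and 0.075 in controls.

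**Figure D3:**
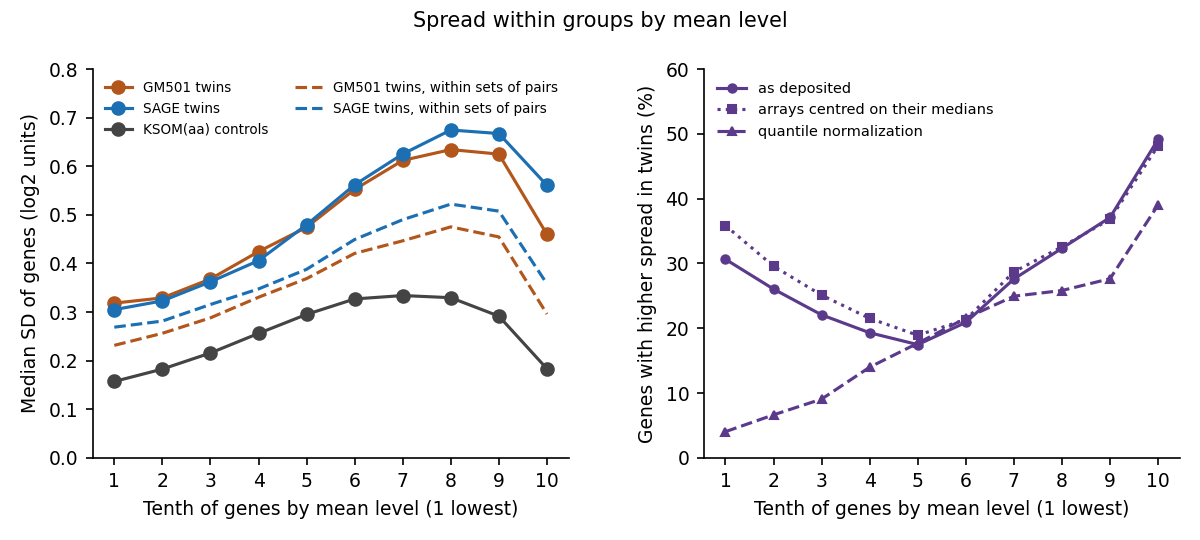
Left, median SD of genes in log2 units (y axis) in each of 10 equal bins of 18087 genes by mean level (x axis), for GM501 twins, SAGE twins and controls, with dashed lines for the SD within sets of pairs. Right, percent of genes in each bin with higher spread in twins of both media (limma, adjusted p under 0.05) as deposited, with arrays centred on their medians and after quantile normalization, which takes bin 1 from 30.6% to 4.04% and leaves bin 10 at 39.0%.

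Receptors of smell, pheromones and taste give a view of the low end, since a blastocyst has no known use for them. Of 1428 such genes with a cluster, only 170 reached the level kept for testing, so the values below leave out the receptors of lowest signal. Twins entered the mean that set this level, and what this choice did to the shares was not tested. The 170 had a median level of 5.08 and median SDs of 0.412 in GM501 twins, 0.403 in SAGE and 0.174 in controls. Of the 170, 69 (40.6%) had higher spread in twins as deposited, against 26.8% of all genes of the same bins, and 19 (11.2%) after quantile normalization, against 7.16% of all genes of the same bins. Pseudogenes had higher spread in twins in 42.3% of 3065 cases against 32.1% at the same levels, long non-coding RNAs in 36.6% of 1064 against 25.3%, and protein-coding genes in 23.7% of 11807 against 27.8%. By chromosome, the share ran from 25.7% on chromosome 12 to 31.6% on chromosome 13 among the autosomes and was 28.7% on the X.

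Genes with the largest rise in spread were mostly of high level in controls and stood far apart between pairs. Cldn4, a claudin of the tight junctions that seal the trophectoderm, had the largest (chromosome 5, 134945123 to 134946934, GRCm38.p6). Its log2 signal had a lowest value of 15.01, a median of 15.96 and a highest value of 16.35 in controls. In GM501 twins these were 11.45, 12.51 and 16.03, and in SAGE twins 10.59, 13.50 and 16.31. The 12 twins of pairs 1 to 6 lay between 10.59 and 14.26, below every control, while the 8 twins of pairs 7 to 10 lay between 15.06 and 16.31, within the range of the controls. The SD was 1.931 in GM501 twins, 2.157 in SAGE and 0.365 in controls, and the mean absolute deviation was higher in twins by 1.60 ± 0.33 (SE, limma adjusted p = 0.00662; within sets, adjusted p = 0.349).

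Most of the others were also lower in pairs 1 to 6. Eef2, the elongation factor that moves the ribosome along the message, ranged from 10.84 to 15.92 in GM501 twins with a median of 12.04, from 10.07 to 15.81 in SAGE twins with a median of 12.74, and from 15.02 to 15.88 in controls with a median of 15.20. All Eef2 values of pairs 1 to 6 lay at or below 12.88, and those of pairs 7 to 10 at or above 13.10. Ppp1ca, a catalytic subunit of protein phosphatase 1, ranged from 10.63 to 15.67 in GM501 twins and from 10.26 to 15.69 in SAGE twins, against 15.40 to 15.92 in controls. Its SDs were 1.733, 1.753 and 0.154, and its deviation was higher in twins by 1.33 ± 0.22 (adjusted p = 0.0031, and 0.0527 within sets). Usf2, a helix-loop-helix transcription factor, had SDs of 1.911, 1.721 and 0.179, with controls between 11.17 and 11.62 and twins from 6.26 to 11.51.

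Actr1a (a dynactin subunit, SDs of 1.868, 2.147 and 0.346), Ganab (a glucosidase of glycoprotein folding, 1.702, 1.722 and 0.216) and Rab1b (a GTPase of transport from the endoplasmic reticulum, 1.990, 1.954 and 0.624) followed the same order of groups, GM501, SAGE, controls. AY036118, a long non-coding RNA, stood on both sides of the controls: twins of pairs 1 to 6 lay between 7.92 and 9.14, controls between 10.77 and 11.69, and twins of pairs 7 to 10 between 11.21 and 12.99. In Usf2 and Rab1b the sets overlapped: the SAGE twin of pair 6 had 10.17 for Usf2 against 10.09 in pair 7, and that of pair 3 had 9.51 for Rab1b against 8.56 in pair 8.

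In Xlr and Ly96 the sets overlapped widely. Xlr, an X-linked gene of a multicopy family whose copies may share probes, had values from 5.96 to 14.63 in GM501 twins, 5.52 to 14.73 in SAGE twins and 5.77 to 8.63 in controls. Co-twins of Xlr stayed close, as in pair 6 with 14.63 and 14.73 and pair 2 with 12.47 and 12.20, and the SD within pairs was 0.988 against 2.934 and 2.813 between them. Its deviation was higher in twins by 1.53 ± 0.55 (limma adjusted p = 0.0426), a call that ended on the log2 scale of the deviations (0.0678). Ly96, a co-receptor of TLR4, had SDs of 2.335, 2.218 and 0.913, and here co-twins differed, with 5.40 and 10.69 in pair 1. In pairs 7 to 10 alone the direction turned for Ly96, with a difference in deviation of -0.045.

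**Figure D4:**
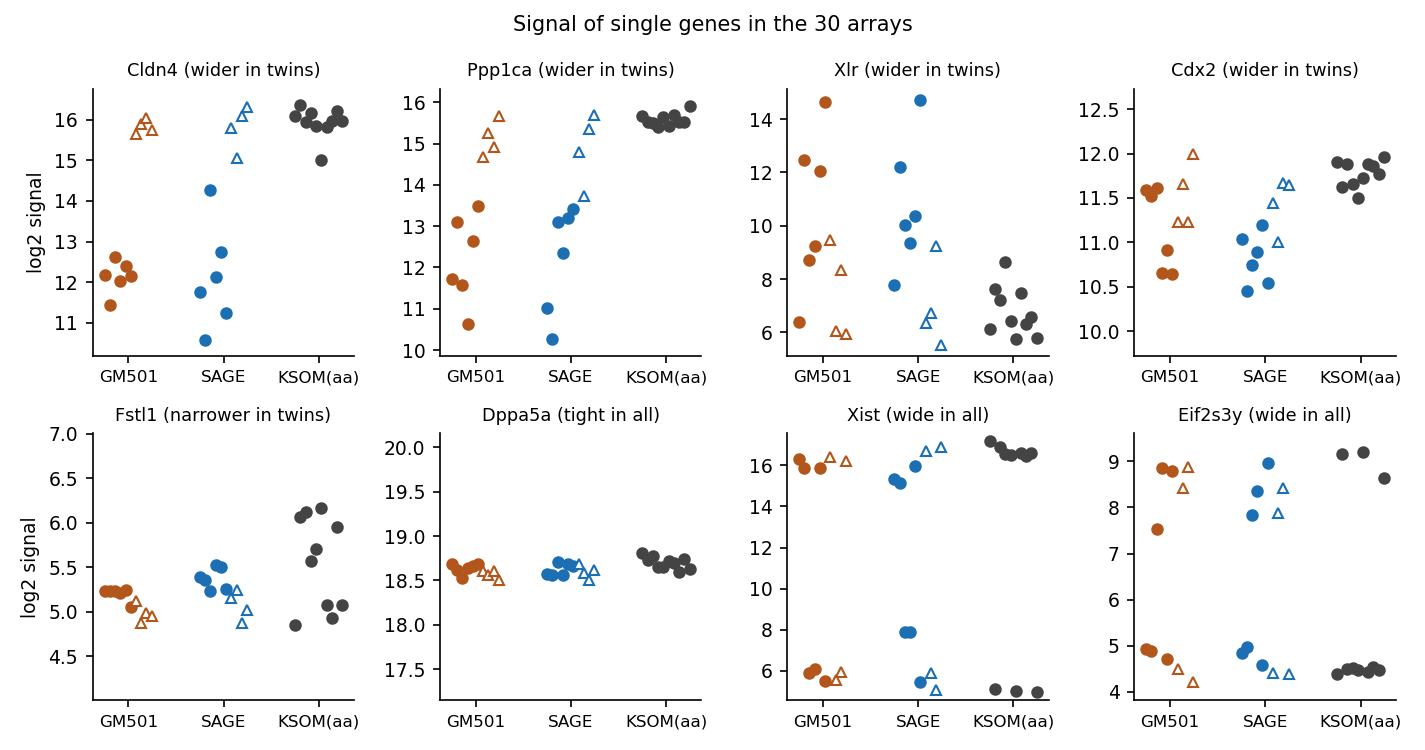
log2 signals (y axes, each with its own range) of 8 genes in the 30 arrays by group (x axis); filled circles are pairs 1 to 6 and controls, open triangles are pairs 7 to 10. Cldn4 twins of pairs 1 to 6 lie at or below 14.26 and all other arrays at or above 15.01, Dppa5a stays between 18.50 and 18.81 in all arrays, and Xist and Eif2s3y take a high and a low state in every group.

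Few genes were more uniform in twins. All 18 with lower spread in twins also had a lower mean there, against 38.9% of all genes kept. Of the 18, 12 were protein-coding (66.7%), near the 65.3% of all genes. Their median level was 5.40 in twins, not far above the array medians, and 6.07 in controls. For all genes kept these medians were 6.97 and 6.99. Whether the floor of the signal narrowed the spread of the 18 in twins was not tested. Fstl1, a secreted follistatin-like protein, ranged from 4.87 to 5.24 in GM501 twins with a median of 5.17, from 4.87 to 5.52 in SAGE twins with a median of 5.25, and from 4.85 to 6.16 in controls with a median of 5.64. Its SDs were 0.138, 0.204 and 0.522, and its deviation fell by 0.33 ± 0.08 in twins (adjusted p = 0.0115). For Fstl1, 6 of 10 controls lay above every twin, from 5.57 upwards, and the other 4 lay at or below 5.08. Pfkp, the platelet form of the glycolytic enzyme phosphofructokinase, had SDs of 0.485, 0.192 and 0.641, with values of 5.27 to 7.20, 5.62 to 6.20 and 5.82 to 7.76.

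Ace, the angiotensin-converting enzyme, had SDs of 0.323, 0.099 and 0.647, and Klf10, a TGF-beta-responsive zinc finger factor, 0.438, 0.240 and 0.750. Spata5l1 (an AAA ATPase), Rab13 (a GTPase of tight junctions), Them5 (a mitochondrial acyl-CoA thioesterase), Trpv6 (a calcium channel) and Catsperg1 and Catsperg2 (near-identical subunits of the sperm calcium channel, which may share probes) made up the 10 largest. Their SDs in controls ran from 0.456 to 0.789 and in twins from 0.188 to 0.549. After quantile normalization 8 of these 10 no longer passed, with adjusted p from 0.0582 to 0.199, while Fstl1 and Catsperg1 did.

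Many genes of the DNA replication machinery had higher spread in twins. Of 28 measured members, 18 had higher spread in twins of both media and 0 lower (64.3%), against 35.1% of all genes of the same level bins and 28.3% of all genes. The median log2 ratio of SDs was 1.29 in GM501 and 1.45 in SAGE, against 0.83 and 0.87 for all genes. The list's median level, 10.29, fell in bin 9, where all genes had 0.99 and 1.08. In bin 10 they had 1.28 and 1.56. A high ratio was not particular to this list, as the proteasome list had 1.45 and 1.70. Mcm2 and Mcm4, subunits of the replicative helicase, had SDs of 1.475, 1.233 and 0.276 and of 0.903, 1.301 and 0.176. Rfc1, the large subunit of the clamp loader, had 0.594, 0.782 and 0.102, and its deviation was higher in twins by 0.50 ± 0.09 (limma adjusted p = 0.0039). After quantile normalization 15 of the 28 replication genes had higher spread (53.6% against 27.8% at the same levels), and with arrays centred on the median of all clusters 18 did (64.3% against 36.7%). Among genes of mitosis 5 of 23 had higher spread (21.7%, against 39.5% at the same levels), among them Bub1b, a spindle checkpoint kinase, with 1.206, 0.930 and 0.460.

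The proteasome list, the spliceosome list and the list of cytoskeletal and translation factors also had shares above those of their level. Other housekeeping lists lay below theirs: cytosolic ribosomal proteins (31.8% against 41.6%), ribosome biogenesis (32.1% against 36.4%) and oxidative phosphorylation (38.2% against 42.9%). Their median log2 ratios of SDs still exceeded those of all genes, 0.83 in GM501 and 0.87 in SAGE. In this order they were 1.34 and 1.60, 1.29 and 1.19, and 1.15 and 1.325. With arrays centred on their medians oxidative phosphorylation had 15 of 34 (44.1% against 42.4%). The proteasome, which degrades ubiquitin-marked proteins, had higher spread for 18 of 30 genes (60% against 45.6% at the same levels), with median SDs of 0.398 in GM501, 0.540 in SAGE and 0.160 in controls. Psma2, of its core, had 0.399, 0.530 and 0.099, and Psmd3, of its cap, had 1.377, 1.163 and 0.365. The spliceosome list had 12 of 22 (54.5% against 38.7%), with Prpf8, at the catalytic centre, at 1.463, 1.377 and 0.185. Among cytoskeletal and translation factors 10 of 18 had higher spread (55.6% against 43.9%), with Eif5a at 1.223, 1.339 and 0.168. After quantile normalization the counts were 14 of 30 (46.7% against 35.9%), 12 of 22 (54.5% against 30.7%) and 10 of 18 (55.6% against 35.6%) in this order. With all-cluster centring they were 25 (83.3% against 43.5%), 16 (72.7% against 39.3%) and 13 (72.2% against 41.5%).

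Among lists of metabolism, stress, ribosomes and DNA methylation, some shares lay above the background and others below it. Glycolysis had 7 of 15 with higher spread (46.7% against 29.4%) and 1 with lower, Pfkp, and Tpi1, triose phosphate isomerase, had SDs of 1.032, 1.250 and 0.189. The glycolysis share stayed above after quantile normalization (40% against 22.6%) and with all-cluster centring (53.3% against 26.1%). ATF4 targets, the genes of the amino acid stress response, had 15 of 34 (44.1% against 33.3%), with the threonyl-tRNA synthetase Tars at 1.393, 1.379 and 0.286. Cytosolic heat shock genes had 7 of 16 (43.8% against 39.4%) and oxidative phosphorylation 13 of 34 (38.2% against 42.9%). Cytosolic ribosomal proteins had 7 of 22 (31.8% against 41.6%), ribosome biogenesis 9 of 28 (32.1% against 36.4%), the tricarboxylic acid cycle 6 of 20 (30% against 41.1%) and DNA methylation 5 of 12 (41.7% against 29.8%). Cholesterol synthesis had 3 of 15 (20.0% against 31.3%), fatty acid synthesis 3 of 12 (25% against 32.8%), the unfolded protein response 4 of 18 (22.2% against 35.1%), the NRF2 response 4 of 15 (26.7% against 31.5%) and hypoxia 4 of 14 (28.6% against 32.0%). For several of these lists the side of the background depended on scaling. With all-cluster centring the tricarboxylic acid cycle had 14 of 20 (70% against 41.1%), fatty acid synthesis 6 of 12 (50% against 31.3%), ribosome biogenesis 12 of 28 (42.9% against 37.0%), the unfolded protein response 7 of 18 (38.9% against 35.8%) and hypoxia 6 of 14 (42.9% against 28.9%), all above it. After quantile normalization hypoxia had 4 of 14 (28.6% against 23.4%), cytosolic ribosomal proteins 3 of 22 (13.6% against 33.2%) and the NRF2 response 1 of 15 (6.67% against 26.7%).

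**Figure D5:**
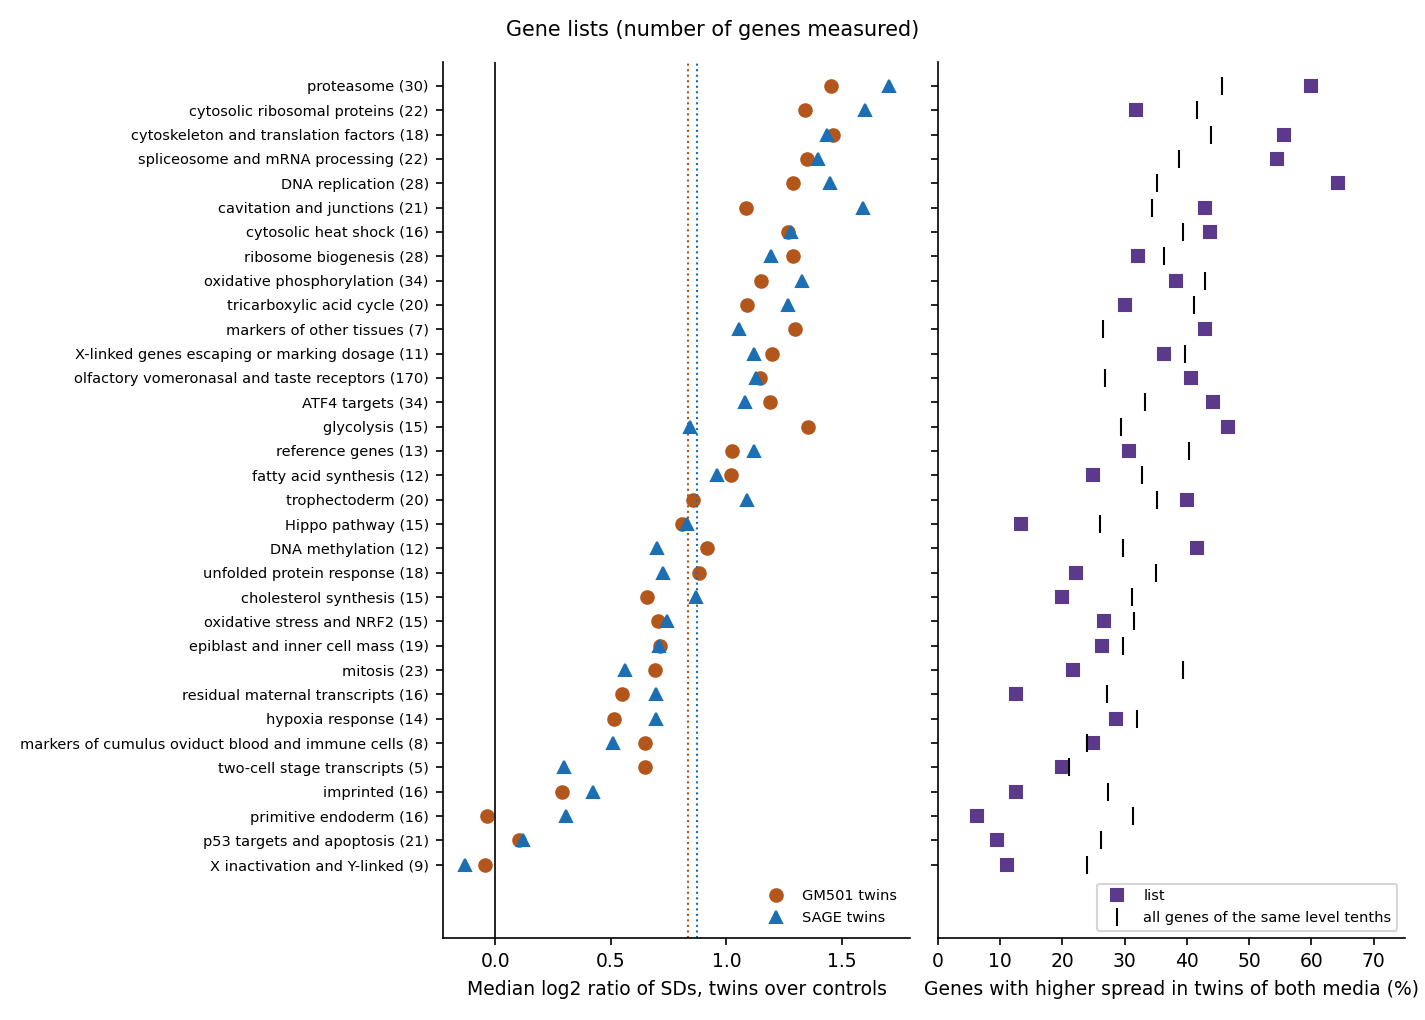
Left, median log2 ratio of SDs in GM501 twins (circles) and SAGE twins (triangles) over controls for each gene list, with dotted lines at the medians of all genes, 0.83 and 0.87. Right, percent of each list with higher spread in twins of both media (squares) and of all genes in the same bins of level (bars); DNA replication has 64.3% against 35.1%, and primitive endoderm 6.25% against 31.4%.

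Markers of the lineages of the blastocyst are given list by list, and differences between the lists were not tested. Trophectoderm markers had higher spread in 8 of 20 cases (40.0% against 35.2% at the same levels). Cdx2, the factor that specifies this lineage, ranged from 10.65 to 12 in GM501 twins with a median of 11.38, from 10.45 to 11.67 in SAGE twins with a median of 11.02, and from 11.50 to 11.96 in controls with a median of 11.82. Its SDs were 0.451, 0.428 and 0.147, and its deviation was higher in twins by 0.25 ± 0.07 (limma adjusted p = 0.0138). The keratin pair of the trophectoderm, Krt8 and Krt18, had SDs of 0.788, 0.999 and 0.161 and of 0.266, 0.442 and 0.054. Genes of cavitation and junctions had 9 of 21 (42.9% against 34.3%), with the water channel Aqp3 at 1.475, 1.770 and 0.412 and the desmosomal protein Dsp at 1.218, 1.210 and 0.347. For Dsp the direction turned in pairs 7 to 10 alone, at -0.043.

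Epiblast and inner cell mass markers stood near the background, with 5 of 19 (26.3% against 29.7%). Pou5f1 had SDs of 0.953, 0.804 and 0.253 and passed (adjusted p = 0.0203). Nanog, a pluripotency factor, did not pass, with 1.538, 0.867 and 0.787 (adjusted p = 0.253), nor did its partner Sox2, with 0.846, 0.382 and 0.612 (adjusted p = 0.973).

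Primitive endoderm markers had 1 gene of 16 with higher spread (6.25% against 31.4% at the same levels), and their median log2 ratio of SDs was -0.04 in GM501 and 0.31 in SAGE. That gene was Lrp2, an endocytic receptor, with SDs of 1.859, 1.550 and 0.418. Gata6, the factor of this lineage, had 0.619, 0.596 and 0.291 (adjusted p = 0.0563). In controls the markers were already spread, with a median SD of 0.393 against 0.254 for all genes. The list's median ratio in GM501 was 0.43 when arrays were centred on the median of all clusters, so its direction depended on scaling.

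The remaining lists lay on either side of the background. Targets of p53 and apoptosis genes had 2 of 21 (9.52% against 26.3%), Mcl1, an anti-apoptotic protein with SDs of 0.510, 0.568 and 0.150, and Trp53inp1 with 0.746, 0.887 and 0.468, and a median SD in controls of 0.430. Imprinted genes had 2 of 16 (12.5% against 27.3%), Igf2r at 1.256, 1.317 and 0.202 and Gab1 at 0.573, 0.754 and 0.296, and a median SD in controls of 0.460. Hippo pathway genes had 2 of 15 (13.3% against 26.0%), Mob1a and Tead4. The call of Tead4 ended after quantile normalization (limma adjusted p = 0.0593) and on the log2 scale of the deviations (0.0931). With all-cluster centring the Hippo list had 5 of 15 (33.3% against 25%), so its side of the background depended on scaling. Residual maternal transcripts had 2 of 16 (12.5% against 27.2%), Ooep and H1f8, and 2-cell stage transcripts 1 of 5 (20.0% against 21.0%), Usp17lc; none of these 3 passed after quantile normalization, with adjusted p from 0.056 to 0.123. X-linked dosage genes had 4 of 11 (36.4% against 39.8%), and X inactivation and Y-linked genes 1 of 9 (11.1% against 23.9%). Here too the side depended on the setting. X-linked dosage genes had 36.4% against 31.2% after quantile normalization and 45.5% against 40.3% with all-cluster centring. X inactivation and Y-linked genes had 0 after quantile normalization and 5 (55.6% against 16.5%) on the log2 scale of the deviations. Imprinted genes had 4 of 16 (25% against 24.1%) with all-cluster centring. Markers of cumulus, oviduct, blood and immune cells had 2 of 8 (25% against 23.9%) and those of adult tissues 3 of 7 (42.9% against 26.5%), and after quantile normalization both had 0, where limma called 3451 genes in all; their part in the other results was not tested.

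Genes used as internal references were not equally steady. Of 13 measured, 4 had higher spread in twins (30.8% against 40.3% at the same levels): Actb (0.668, 0.727 and 0.224), Gapdh (0.538, 0.649 and 0.192), Sdha (0.664, 0.617 and 0.263) and Tfrc (0.917, 1.117 and 0.436). In pairs 7 to 10 alone the differences in deviation of Actb and Gapdh were -0.03 and -0.02, so their direction turned there, and Actb also turned in pairs 1 to 6 alone, at -0.02. Reference genes that did not pass included H2az1, a histone variant, with 0.132, 0.165 and 0.083, Rplp0, a ribosomal stalk protein, with 0.101, 0.243 and 0.069, and Ywhaz, a 14-3-3 protein, with 0.229, 0.215 and 0.122. B2m, the light chain of class I molecules, was the widest of them, with 1.842, 1.578 and 0.906 (limma adjusted p = 0.0791). With arrays centred on the median of all clusters 9 of the 13 had higher spread (69.2% against 40% at the same levels).

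Some genes stayed tight in every group. The 10 with the lowest maximum of the 3 SDs were taken from genes with a mean of at least 8.49, as a description. Dppa5a, an RNA-binding protein of pluripotent cells, was the tightest, between 18.51 and 18.69 in GM501 twins (median 18.62), 18.50 and 18.71 in SAGE twins (median 18.60) and 18.59 and 18.81 in controls (median 18.71). Its SDs were 0.061, 0.069 and 0.069. Gabarapl2, of the autophagosome, had 0.050, 0.085 and 0.088, Rpl41, of the large ribosomal subunit, 0.080, 0.090 and 0.047, and COX1, the mitochondrial cytochrome oxidase subunit, 0.124, 0.118 and 0.114. These 4 had mean signals between 17.56 and 18.78, which is near the highest signal of the data, and whether the top of the range bounds them was not tested. Of the 100 tightest genes, drawn from 6029 of high level, 58 had a level above 17, and 55 were pseudogenes. Among all 18087 genes kept, 3065 were pseudogenes. The shares of pseudogenes and of levels above 17 among the 6029 are not given here. Whether the 100 differ from the 6029 in these respects was therefore not examined.

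Zfp553, Skp1 and Ube2d3 were tight at far lower levels. Zfp553, a zinc finger protein, had means of 9.40, 9.39 and 9.43 and SDs of 0.124, 0.105 and 0.115. Skp1, an adaptor of ubiquitin ligases, had means of 10.45, 10.43 and 10.33 and SDs of 0.093, 0.133 and 0.083. Ube2d3, a ubiquitin-conjugating enzyme, had means of 9.90, 9.95 and 9.98 and SDs of 0.141, 0.134 and 0.093. Arpc2 (actin branching), Cdc42 (a regulator of cell polarity) and Npm1 (nucleophosmin) completed the 10, with maximum SDs of 0.140, 0.142 and 0.146. Just outside stood Snrpe at 0.149 and Hspa8 at 0.158. Over all genes kept, the 5th percentile of the SD was 0.096 in controls, 0.183 in GM501 twins and 0.187 in SAGE twins.

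Another set of genes was chosen for wide spread in every group, and is given as a description. Ranked by the lowest of their 3 SDs, the first was Xist, the RNA that silences an X chromosome in females, with 5.456, 5.138 and 5.629. It was high in 5 of 10 GM501 twins, in the same 5 of 10 SAGE twins and in 7 of 10 controls, and co-twins were in the same state in 10 of 10 pairs. Eif2s3y, a Y-linked translation factor, was high in the other embryos, 5, 5 and 3, and also matched in 10 of 10 pairs. The difference between co-twins of Eif2s3y had an SD of 0.214 after scaling to a single embryo, against 2.070 and 1.954 between embryos.

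Genes on the autosomes were among the most variable too. Baiap2l1, an adaptor of membrane protrusions, had SDs of 2.580, 2.610 and 2.559, with values of 6.28 to 13.03 in GM501 twins, 6.5 to 13.09 in SAGE twins and 7.46 to 12.83 in controls. Its arrays split into a low and a high state, and co-twins shared the state in 10 of 10 pairs, 4 of them high, while 5 of 10 controls were high. Elobl, a testis-type relative of elongin B, had 2.773, 2.540 and 2.279 and matched in 9 of 10 pairs. Bst2, the virus-tethering factor tetherin, had 1.986, 1.998 and 1.961, with an SD within pairs of 0.879.

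Phlda2, an imprinted regulator of placental growth, had SDs of 2.580, 2.746 and 2.187, and Nr0b1, the X-linked nuclear receptor DAX1, had 1.894, 2.195 and 1.752. For both the SD within pairs, 2.154 and 2.116, was close to that between embryos. The X-linked cancer-testis genes Magea1, Magea3 and Magea8, which are close copies and may share probes, had SDs from 1.633 to 2.411. All 3 were high or low together in some embryos, as in control 2 with 12.22, 12.69 and 13.68 and control 6 with 4.41, 4.28 and 5.61. Just outside the 10 stood Fthl17b with a lowest SD of 1.541 and Uty with 1.524.

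No gene passed the test of spread between the media. With co-twins as pairs, limma called 0 of 18087 genes (0%), 582 had an unadjusted p under 0.05 where chance alone gives 904, and 48.7% of genes had a larger mean deviation in GM501. The smallest p values belonged to Dscc1, of sister chromatid cohesion, with SDs of 0.454 in GM501 and 1.297 in SAGE, and Rnf125, a ubiquitin ligase, with 0.707 and 0.235. Lxn, a carboxypeptidase inhibitor, had 0.688 and 1.165, Laptm4b, a lysosomal membrane protein, 0.432 and 1.053, and Ccdc6, a coiled-coil protein, 0.419 and 0.775. All had an adjusted p of 1. Across the 18087 genes Pearson's r between the log2 SDs of GM501 and SAGE twins was 0.806, and between those of GM501 twins and controls 0.587, where the twin groups share their embryos.

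For most genes the difference within pairs of co-twins was also larger than that between intact embryos. The SD of the difference between co-twins, divided by the square root of 2 to put it on the scale of a single embryo, had a median over genes of 0.341 log2 units against 0.254 in controls, and exceeded the SD of controls for 74.6% of genes. The median log2 ratio was 0.44, or 1.35-fold. It was 0.31 in pairs 1 to 6 alone and 0.34 in pairs 7 to 10 alone, and without pair 8 it was 0.31. In pairs 7, 9 and 10 it was -0.09, and there the square root of the mean variance was 1.02-fold that of controls. Co-twins grew in different media, so their difference holds any response to medium that varies between pairs. Co-twins also matched for Xist and Eif2s3y in 10 of 10 pairs, while controls held both states. For genes that differ by sex, a low ratio within pairs therefore follows from the design. The median log2 ratio within pairs lay below 0 for 6 lists, at -0.89 for X inactivation and Y-linked genes, -0.50 for primitive endoderm, -0.38 for p53 targets, -0.13 for imprinted genes, -0.12 for X-linked dosage genes and -0.03 for mitosis, whereas for the proteasome and DNA replication it was 1.14 and 1.05.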

How the data were processed

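The authors deposited log2 signals of 65956 transcript clusters in 30 arrays, made with RMA in Affymetrix Expression Console on mm10, per the submitters' processing notes; versions are not given in the sources used here, and the log2 base was inferred from the range of values. Targets were made with the WT Pico kit, per the labels. Signals are relative within a cluster. RMA includes a normalization across arrays, yet array medians here ran from 4.57 to 5.28. Whether all 30 arrays were normalized together was not tested. The number of arrays limits precision.

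Clusters were named through the platform's annotation and the gene table of GRCm38.p6. Of 32750 listed clusters, 30604 had 1 symbol and 2146 had several and were not named; clusters outside the list are unnamed here. The cluster of highest mean stood for each of 30142 genes, and 18087 genes, the upper 60% by overall mean, entered the tests, with a mean of at least 4.8.

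R 4.3.3 and limma 3.58.1 tested spread (lmFit, eBayes, two-sided, Benjamini-Hochberg over these genes, threshold 0.05) on absolute deviations from the group median times the square root of n/(n - 1). Co-twin deviations were averaged against controls, and the pair was a block between media. Typical deviations used 100000 resamples; 1e-05 is the smallest p they can give. Smaller groups were enumerated exactly. The labels name embryos but no litters or culture days, so p-values cover only the variation among the embryos sampled.

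Per the labels, twins of 1 number came from 1 embryo. Co-twin deviations correlated with r from 0.163 to 0.696, over 0.1 in 10 of 10 pairs. No arrays were identical. Pairs 1 to 6 and 7 to 10 are sets by pair number, known from earlier results. Array medians separate them except for the SAGE twin of pair 8.

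Named genes were the 10 largest rises and falls in spread, up to 3 called genes of each list by smallest p, the 10 tightest among genes of high level, the 10 most variable, the 5 smallest p between media, lineage factors and reference genes; for predicted genes, pseudogenes, small RNAs and olfactory receptors only counts are given. Members and lists were chosen with earlier results of these data known. The share of a list is set beside that of all genes in the same bins of level. The script was tested on simulated data. Python 3.11.15 and matplotlib 3.10.9 drew the figures.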

Additional observations from a re-analysis of the deposited data

Results flagged for a closer look

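In 129 groups of 10 arrays examined (9 of array measures and 120 of named genes), 9 had an end value farther from its neighbour than Dixon's critical share of the range. Chance alone gives about 1 in 20. The SAGE twin of pair 8 was among them 3 times: its typical deviation within its set was 0.473 against 0.290 for the next, its Skp1 signal 10.10 against 10.39, and its Npm1 signal 16.97 against 17.25. Control 6 had the lowest Cldn4 signal of its group, 15.01 against 15.81, and the highest COX1 signal, 18.75 against 18.56. The others were Rab1b in control 7 (9.17 against 10.20), Zfp553 in control 3 (9.70 against 9.51), Spata5l1 in the SAGE twin of pair 9 (7.15 against 6.03) and Pfkp in the GM501 twin of pair 10 (7.20 against 6.19). Outside the named genes, 14948 clusters without a single listed gene reached the same level, and 3902 of them (26.1%) had higher spread in twins of both media and 13 lower, with a median SD of 0.55 in both groups of twins and 0.288 in controls.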

How the results depend on the processing

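Wider spread in twins kept its direction in the median SD ratios of both media and in the typical deviations under every alternative run, while its gene counts moved widely. The counts below are of genes called in either direction, in the order twins of both media (5129), GM501 (1628) and SAGE (1072). With pairs 7 to 10 alone they were 25, 22 and 113, with pairs 1 to 6 alone 423, 58 and 166, and with residuals after regression on the array median 199, 6 and 2. With deviations taken within the sets, chosen after seeing the data, they were 15, 0 and 2, and 1695 genes had an unadjusted p under 0.05 in GM501 by limma. Quantile normalization gave 742 in GM501 and 411 in SAGE, centring on the median of all clusters, added later, 341 in SAGE, and log2 of the deviations 2152 in SAGE. Deviations from the group mean gave 4961 in GM501 and 4762 in SAGE. With all named genes the counts were 10370, 3305 and 1626, as more genes were tested, and with the upper 30% by level 3084 for twins of both media, as fewer were. Leaving out 1 pair at a time gave 2042 to 5215 for both media, 0 to 1425 in GM501 and 0 to 873 in SAGE; leaving out 1 control gave 4109 to 4594. Between media the count was 0 with no replicate block too (372 genes at an unadjusted p under 0.05), and under the other alternatives. The pairing changed no call there. Other causes of these movements were not tested.

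The median log2 ratio of SDs was 0.20 for GM501 in pairs 7 to 10 alone, and in pairs 7, 9 and 10, added later, 0.12 for GM501 and 0.0044 for SAGE, where the within-pair ratio was -0.0896; with so few arrays the median SD is biased low. Of 5129 genes called, 93.4% were shared with arrays centred on their medians, 67.9% with log2 deviations, 60.7% with quantile normalization, 53.9% with all-cluster centring, 7.16% with pairs 1 to 6 alone and 0.429% with pairs 7 to 10 alone. Among 104 named genes the difference in deviation turned for Myh6 under quantile normalization (-0.0064), all-cluster centring (-0.0074) and regression (-0.0023). In pairs 7 to 10 alone it turned for Ly96 (-0.045), Dsp (-0.043), Herpud1 (-0.14), Higd1a (-0.032), Aurka (-0.13), Gapdh (-0.022) and Actb (-0.031), in pairs 1 to 6 alone for Elovl1 (-0.017) and Actb (-0.023), and within sets for Actb (-0.027).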
